A study of Mus musculus with 14 samples.

Results

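The set described here holds 7 genes: Arc, Homer1, Bdnf, Nptx2, Inhba, Cyr61 and Ptgs2. They are activity-induced genes of the brain that do not encode transcription factors, and all 7 were found by symbol among the 23412 genes of the count table. All 7 passed the filter on low counts in every fit. The set was put together with the difference between the genotypes already known, so every comparison of these 7 genes between genotypes below is a description: no p-value is given for it, and where a fit across all genes called some of the 7, the count is printed beside the share over all genes and nothing is read from it. The material was cerebral cortex of mice. All mice carried floxed Rpl22 and a CamK-driven Cre (Rpl22flox/flox;CamKCre+), the RiboTag design in which Cre switches a ribosomal protein to a tagged form in CaMKIIa-expressing, mainly excitatory, forebrain neurons. No pull-down of tagged ribosomes is named in the labels, so the libraries are read here as whole cortex. Control mice had intact Fmr1, and knock-out (KO) mice were Fmr1X-Y males lacking the gene of FMRP, an RNA-binding protein that represses and stalls translation of many neuronal mRNAs. The age of the mice is not given in the sources used here. RNA-seq libraries came from control mice 1, 3, 6 and 8 (n = 4) and from KO mice 2, 4, 5 and 7 (n = 4). Ribosome profiling, which sequences the mRNA fragments shielded by ribosomes (footprints), was done on control mice 1, 3 and 9 (n = 3) and on KO mice 2, 4 and 10 (n = 3).

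Neuronal firing raises calcium and cyclic AMP, which act through kinases on factors such as CREB, SRF and MEF2 already bound to DNA. A first wave of genes then rises within minutes, without new protein synthesis. Part of that wave encodes transcription factors, and another part encodes proteins that act directly at the synapse or are secreted. Which genes of the set rise in that wave and which rise later was not tested here. Arc and the short form of Homer1 remodel the postsynaptic side. BDNF, neuronal pentraxin 2 and activin A (made from Inhba) are released signals, Cyr61 is a matricellular protein laid down outside the cell, and Ptgs2 (COX-2) makes prostaglandin precursors. Many of these mRNAs are short-lived, so that their level follows recent activity of the tissue. In bulk cortex, fewer cells of a type and less RNA per cell cannot be told apart.

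Promoter windows reaching from 250 bases before to 50 bases after a start site were taken from RefSeq (GRCm38.p6) and searched for letters that CREB, AP-1 and SRF are known to bind. Windows were matched for 5 of the 7 genes, 12 windows in all, of which Bdnf has 7 and Homer1 has 2. The sequences of Cyr61 (RefSeq symbol Ccn1), Homer1 and Bdnf are shown because, among the genes with a window, they hold the half-site of the cyclic AMP response element before a start site. Each is the 250 bases before the start, 5′ to 3′ on the strand of the gene, with TGACG or its reverse complement CGTCA in capitals.
Cyr61 (Ccn1), chr3:145649986-145650235, minus strand, GRCm38.p6: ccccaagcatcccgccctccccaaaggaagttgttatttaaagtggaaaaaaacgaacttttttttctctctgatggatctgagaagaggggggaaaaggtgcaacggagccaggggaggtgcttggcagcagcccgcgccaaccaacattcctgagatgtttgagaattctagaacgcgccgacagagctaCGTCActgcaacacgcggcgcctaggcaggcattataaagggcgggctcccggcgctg
Homer1, chr13:93303507-93303756, plus strand, GRCm38.p6: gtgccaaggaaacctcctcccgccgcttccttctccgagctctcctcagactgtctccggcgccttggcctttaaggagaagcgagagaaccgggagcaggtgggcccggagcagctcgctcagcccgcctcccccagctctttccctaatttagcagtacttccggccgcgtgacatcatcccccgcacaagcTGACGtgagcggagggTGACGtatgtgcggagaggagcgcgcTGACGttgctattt
Bdnf, chr2:109692186-109692435, plus strand, GRCm38.p6: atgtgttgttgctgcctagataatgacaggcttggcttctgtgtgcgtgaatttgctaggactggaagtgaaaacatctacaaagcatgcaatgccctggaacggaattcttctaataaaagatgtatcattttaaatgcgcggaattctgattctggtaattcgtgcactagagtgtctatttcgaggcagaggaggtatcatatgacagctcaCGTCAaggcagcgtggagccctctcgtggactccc
The Homer1 window held 3 half-sites on the gene's strand, the nearest of them 10 to 14 bases before the start. Cyr61 had 1 half-site 54 to 58 bases before the start, upstream of a TATAAA at 20 to 25 bases. In Bdnf the half-site lay 31 to 35 bases before the start of 1 of its 7 windows. Ptgs2 had 1 half-site, 13 to 17 bases after its start base and so outside the stretch printed for the other genes. In all, 4 of the 12 windows held TGACG on either strand, against 20.8% of 32851 RefSeq windows of the same length. The full element TGACGTCA, which contains the half-site, was in 0 of the 12 windows (1.79% of all), and so was the CArG box (1.63% of all). TGANTCA, the AP-1 site, was found in 1 window, of Bdnf (7.81% of all). TATAAA was in 2 of the 12 windows (13.6% of all), that of Cyr61 and that of Inhba, there 86 to 91 bases before the start. These are matches of letters, not measured binding sites.

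Before the results, some libraries have to be set apart. Levels are given as CPM, the count scaled to a library of common size. Fmr1 RNA averaged 82.9 ± 8.37 CPM in controls against 21.7 ± 2.40 CPM in the knock-outs (SD, n = 4 each), and Fmr1 footprints 113 ± 1.99 CPM against 7.44 ± 1.43 CPM (SD, n = 3 each). Total counts were 8847547 to 11371851 in RNA libraries and 4124065 to 6033030 in footprint libraries. RNA libraries of KO mice 2, 4 and 7 differed from each other by little more than counting error (chi-square per degree of freedom 1.18 to 1.32, where 1 is counting error alone), while pairs with KO mouse 5 reached 5.64 to 6.02. Control mice 1 and 3 stood at 1.99, and the other control pairs at 4.03 to 11.8. Footprint pairs of one genotype lay between 1.20 and 1.46, in part as close as the RNA libraries of KO mice 2, 4 and 7 and in part somewhat farther apart. The labels give every library its own mouse number, and n counts libraries as labelled. Whether libraries this close come from separate animals was not tested, and if they do not, the n of those groups is smaller and the SDs and p-values cover less than the spread between animals. With KO mice 2, 4 and 7 summed into 1 library, the RNA log2 difference was 1.48 ± 0.36 for Arc and 2.09 ± 0.28 for Cyr61, where each library apart gave 1.73 and 2.29 (SE of edgeR's fit). The 3 footprint libraries of a genotype could not be summed in the same way, since 1 library a genotype would leave no test. Markers of cortical excitatory neurons, the main source of most of these activity-regulated mRNAs, were present in every library. Their sum over 8 genes was higher in every KO library than in any control library, in RNA (2188 to 2264 CPM against 1888 to 2041 CPM) and in footprints (1506 to 1541 CPM against 1446 to 1472 CPM), with 1 of the 8 called higher in RNA, and 2 called higher and 1 lower in footprints. Slc17a7, the vesicular glutamate transporter, made up most of that sum. Without it the other 7 genes overlapped between the genotypes, at 536 to 568 CPM in KO and 499.5 to 546 CPM in control RNA and at 553 to 561 CPM against 546 to 554 CPM in footprints. The part of the Slc17a7 shift in the values of the 7 genes was not tested. The summed level of 5 choroid plexus markers reached 281 CPM in the RNA of control mouse 8 and 120 CPM in that of KO mouse 5, and its lowest values were 9.87 CPM among controls and 6.53 CPM among knock-outs. Ttr alone reached 263 CPM and 104 CPM in these libraries. In footprints the choroid plexus sum was lower in every KO library, at 5.69 to 11.2 CPM against 12.5 to 14.4 CPM, with 1 of 3 tested markers called lower and Kcne2 at 0. Those 2 libraries recur below, and the part of choroid plexus or of other tissue in the results for them was not tested.

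Arc, on chromosome 15 (chr15:74669081-74672570, RefSeq GRCm38.p6), encodes a cytoskeleton-associated protein that drives removal of AMPA receptors from synapses. Arc RNA was at 61.6, 58.8, 59.6 and 151 CPM in control mice 1, 3, 6 and 8. In KO mice 2, 4, 5 and 7 it was at 330, 322, 136 and 309 CPM. Control mouse 8 thus lay above KO mouse 5, and the groups overlapped through these 2 libraries. Controls averaged 82.8 ± 45.7 CPM and knock-outs 274 ± 92.6 CPM (SD, n = 4 each), a log2 difference of 1.73 ± 0.30 (SE of edgeR's fit). Arc footprints were at 83.6 CPM in each of the 3 control libraries, from 354 to 493 counts, and at 565, 571 and 554 CPM in KO mice 2, 4 and 10. They did not overlap, and their log2 difference was 2.75 ± 0.04. Within mice 1 to 4 alone, the RNA difference was 2.44 ± 0.05 on the log2 scale, and within mice 5 to 8 it was 1.08 ± 0.30.

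Homer1 (chr13:93303757-93405129) is the other postsynaptic member. Its long forms are scaffolds that link group I metabotropic glutamate receptors to IP3 receptors and Shank proteins. Its short, activity-induced form Homer1a lacks the coiled coil and uncouples them. The table counts the gene as a whole, so the short and long forms cannot be separated here. Homer1 RNA was at 240, 253, 234 and 264 CPM in control mice 1, 3, 6 and 8 and at 231, 233, 240 and 234 CPM in KO mice 2, 4, 5 and 7. The ranges overlapped, with a log2 difference of -0.08 ± 0.05, and the exon columns, which held more counts for this gene, gave 0.01 ± 0.05. Homer1 footprints were at 95.8, 107 and 106 CPM in control mice 1, 3 and 9 and at 114, 114 and 128 CPM in KO mice 2, 4 and 10. Every KO library was above every control library, by a log2 difference of 0.20 ± 0.06.

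**Figure D1:**
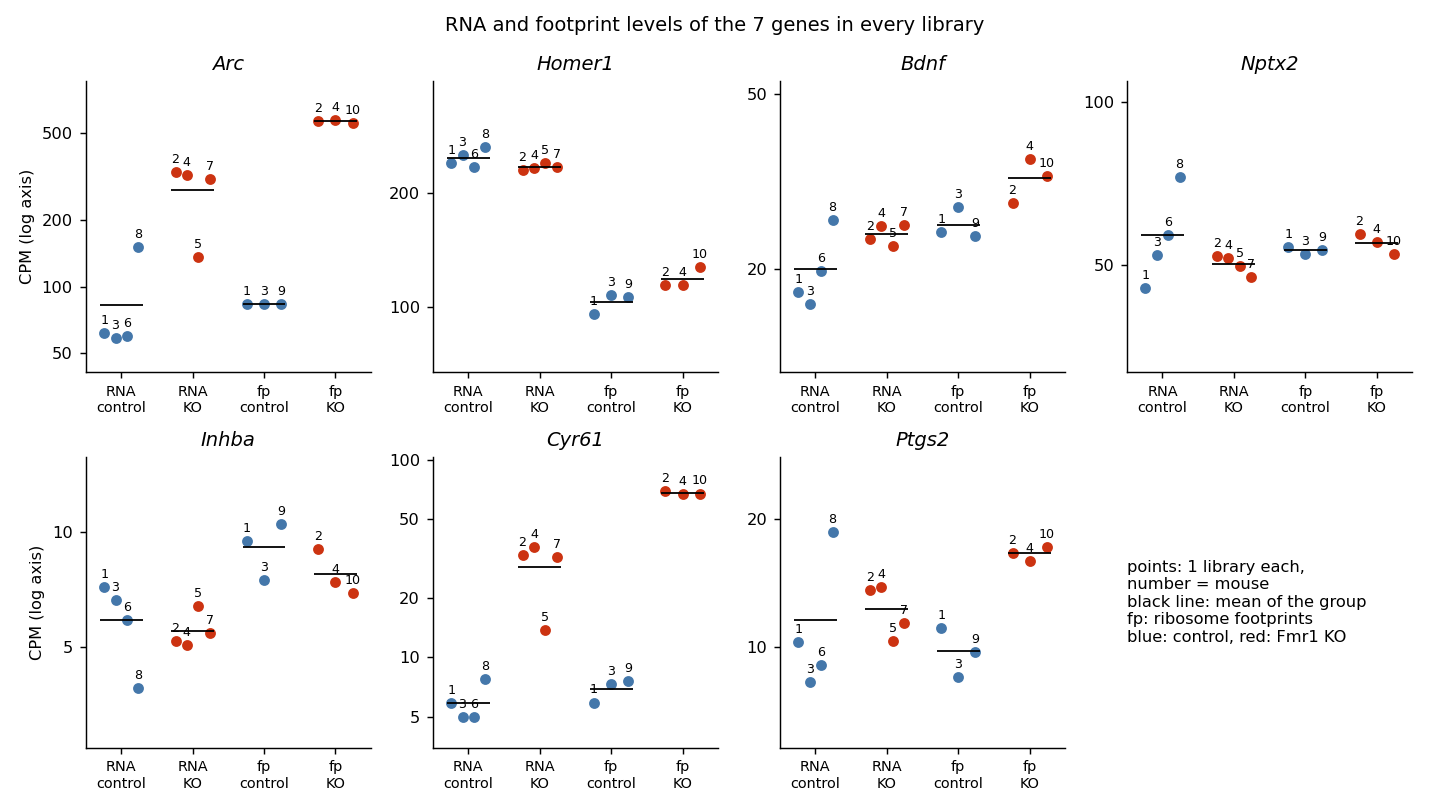
Level of the 7 genes in every library, in CPM on a log axis, for RNA (left pair of columns) and footprints (right pair); each point is 1 library with its mouse number, blue for control and red for Fmr1 KO, and the black line is the group mean. Arc and Cyr61 footprints separate the genotypes widely, and control mouse 8 and KO mouse 5 lie between the groups in Arc RNA.

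Bdnf (chr2:109674700-109727043) encodes the neurotrophin that signals through TrkB and strengthens synapses. Bdnf RNA was at 17.7, 16.7, 19.8 and 25.8 CPM in control mice 1, 3, 6 and 8 and at 23.4, 24.99, 22.5 and 25.2 CPM in KO mice 2, 4, 5 and 7. Control mouse 8 was the highest of the 8 libraries, and the other 3 controls lay below all 4 KO libraries. The log2 difference was 0.26 ± 0.12. Bdnf footprints were at 24.3, 27.6 and 23.7 CPM in control mice 1, 3 and 9 and at 28.2, 35.6 and 32.5 CPM in KO mice 2, 4 and 10. The groups did not overlap, though the highest control and the lowest KO library were close, and the log2 difference was 0.34 ± 0.11. Each Bdnf footprint library rests on 103 to 163 counts.

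Nptx2 (chr5:144545887-144557478) encodes neuronal pentraxin 2, a secreted protein that gathers AMPA receptors at excitatory synapses on interneurons. Its RNA was at 45.4, 52.3, 57.0 and 72.9 CPM in control mice 1, 3, 6 and 8 and at 52.0, 51.6, 49.96 and 47.5 CPM in KO mice 2, 4, 5 and 7. The KO range lay inside the control range, and the log2 difference was -0.18 ± 0.11. Nptx2 footprints were at 54.1, 52.4 and 53.3 CPM in control mice 1, 3 and 9 and at 57.2, 55.1 and 52.4 CPM in KO mice 2, 4 and 10, with a log2 difference of 0.04 ± 0.08. The groups of Nptx2 thus overlapped in both assays.

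Inhba (chr13:16004256-16031609) encodes the activin beta A subunit, whose dimer, activin A, signals through activin receptors and SMAD proteins. Its RNA was low, at 7.15, 6.63, 5.86 and 3.90 CPM in control mice 1, 3, 6 and 8 and at 5.17, 5.05, 6.39 and 5.44 CPM in KO mice 2, 4, 5 and 7. Inhba was the only one of the 7 genes for which control mouse 8 was the lowest control library, and the groups overlapped (log2 difference -0.10 ± 0.18). Its footprints were at 9.44, 7.46 and 10.5 CPM in control mice 1, 3 and 9 and at 9.01, 7.39 and 6.91 CPM in KO mice 2, 4 and 10. They also overlapped, with a log2 difference of -0.23 ± 0.20 from 33 to 59 counts per library.

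Cyr61 (Ccn1, chr3:145646971-145649985), which encodes a secreted, integrin-binding protein of the extracellular matrix, had the widest separation of the 7 genes. Its RNA was at 5.84, 4.97, 4.98 and 7.79 CPM in control mice 1, 3, 6 and 8 and at 32.99, 36.4, 13.8 and 32.1 CPM in KO mice 2, 4, 5 and 7. Even KO mouse 5, the lowest, was above control mouse 8, the highest. The means were 5.90 ± 1.33 CPM (SD, n = 4) and 28.8 ± 10.2 CPM (SD, n = 4), a log2 difference of 2.29 ± 0.25. Footprints were at 5.90, 7.29 and 7.62 CPM in control mice 1, 3 and 9 and at 69.3, 67.2 and 67.7 CPM in KO mice 2, 4 and 10, a log2 difference of 3.27 ± 0.12. The control footprint values rest on only 25 to 43 counts per library.

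Ptgs2 (chr1:150100031-150108234), the inducible cyclooxygenase made by excitatory neurons and by vessel cells, had overlapping groups in RNA and separate groups in footprints. Its RNA was at 10.3, 8.29, 9.07 and 18.6 CPM in control mice 1, 3, 6 and 8 and at 13.6, 13.8, 10.3 and 11.4 CPM in KO mice 2, 4, 5 and 7, with a log2 difference of 0.09 ± 0.21. Control mouse 8 was again the highest of all. Without it, the log2 difference was 0.42. Ptgs2 footprints were at 11.1, 8.48 and 9.75 CPM in control mice 1, 3 and 9 and at 16.6, 15.9 and 17.2 CPM in KO mice 2, 4 and 10. These did not overlap, and the log2 difference was 0.78 ± 0.16 from 47 to 82 counts per library. Because Cyr61 and Ptgs2 are also made outside neurons, markers of other cells are given beside them. The summed level of 6 meningeal fibroblast markers was lower in KO mice, in RNA (225 to 317 CPM against 168 to 198 CPM) and in footprints (528 to 549 CPM against 278 to 294 CPM), with 5 of 6 markers called lower in each. The sum of 5 endothelial markers overlapped between the genotypes, at 105 to 201 CPM in control and 122 to 193 CPM in KO RNA, and control mouse 8 and KO mouse 5 were the lowest of their genotypes. They were also the lowest for the sum of 6 mural cell markers, at 94.6 and 84.2 CPM. In footprints the mural sum was slightly higher in every KO library, at 183 to 187 CPM against 177 to 182 CPM, but without Rgs5, its most abundant gene, it was lower in every KO library, at 85.6 to 90.8 CPM against 98.7 to 102 CPM, and the endothelial sum overlapped (191 to 210 CPM against 192 to 201 CPM), with Slco1a4, an organic anion transporter, called higher and Cldn5, a tight-junction protein, called lower. The part of these cells in the values of Cyr61 and Ptgs2 was not tested.

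Across the set, the RNA fit called 2 of the 7 genes (edgeR's quasi-likelihood F test, adjusted p under 0.05), Arc and Cyr61, both higher in KO mice, where 7.41% of 13507 genes were called in either direction and 3.53% higher. The footprint fit called 5 of 7, all higher, where 25.5% of 12158 genes were called and 11.9% higher. Those 5 were Arc, Bdnf, Homer1, Cyr61 and Ptgs2, the same genes whose KO libraries all lay above the controls, as was so for 18.1% of all genes. In RNA that held for 1 of 7, Cyr61, and for 7.1% of all genes. In no case did every KO library lie below every control library, as was so for 7.97% of all genes in RNA and 19.2% in footprints. Nothing is read from these counts, since the genes were chosen on this contrast. With DESeq2 the RNA count was 2, where 9.41% of all genes with an adjusted p were called, and the footprint count 3, without Bdnf and Homer1, where 17.7% were. In edgeR's footprint fit Homer1 also lost its call without control mouse 1 or KO mouse 10, where 22% and 20.9% of all genes were called. Bdnf lost it without KO mouse 4 or control mouse 9, where 20.7% and 23.3% were. In RNA, Bdnf was called as well without control mouse 8 and with the exon columns, where 13% and 8.55% of all genes were called, and Bdnf and Ptgs2 within mice 1 to 4 alone, where 24.1% were. Arc lost its RNA call with KO mice 2, 4 and 7 summed and within mice 5 to 8 alone, where 0.579% and 0.652% of all genes were called. The median log2 difference of the 7 genes was 0.09 in RNA and 0.34 in footprints, and over all genes tested it was -0.001 and 0.005.

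**Figure D2:**
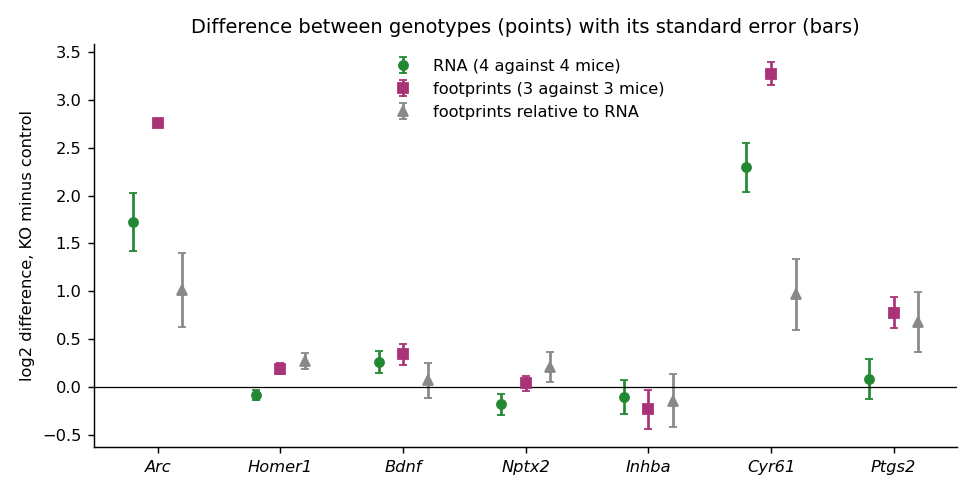
log2 difference between KO and control mice for each gene in RNA (green circles), footprints (purple squares) and footprints relative to RNA (grey triangles), with standard errors as bars. Arc and Cyr61 stand above 1.5 in RNA and above 2.5 in footprints, while Nptx2 and Inhba lie between -0.23 and 0.04 in both.

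Control mouse 8 was the highest of the 4 control RNA libraries for 6 of the 7 genes, all but Inhba. Over all genes tested it was the highest control library for 32.8%. KO mouse 5 was the lowest KO library for Arc, Bdnf, Cyr61 and Ptgs2, 4 of 7, against 34.3% of all genes. When control mouse 8 was left out, the RNA log2 difference became 2.20 for Arc, 0.42 for Bdnf and 2.47 for Cyr61. For Nptx2 it moved from -0.18 to -0.03, for Inhba from -0.10 to -0.26 and for Homer1 from -0.08 to -0.04, with Ptgs2 as given above. Both mice belong to mice 5 to 8 of the RNA set, whose titles share a prefix of their own. Within mice 1 to 4 and within mice 5 to 8 the log2 differences were 0.50 ± 0.11 and 0.06 ± 0.15 for Bdnf. They were 0.57 ± 0.145 and -0.36 ± 0.24 for Ptgs2, 0.09 ± 0.08 and -0.42 ± 0.12 for Nptx2, and -0.42 ± 0.19 and 0.28 ± 0.27 for Inhba. Ptgs2, Nptx2 and Inhba thus changed sign between these sets of mice. The values -0.36, 0.09 and 0.28 were not far above their SE in size, so a reversal was not established. Cyr61 gave 2.69 and 1.85, and Homer1 gave -0.08 and -0.07. The sum of 5 dentate gyrus markers was 59.3 CPM in control mouse 8 and 60.8 CPM in KO mouse 5, the highest of each genotype, and 49.6 CPM at the lowest in both genotypes. Trpc6 made up most of that sum, and without it the sum was 19.9 to 22.6 CPM in control and 18.6 to 21.9 CPM in KO libraries. The part of dentate gyrus in the values of these 2 libraries was not tested.

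The question of whether ribosome occupancy follows the mRNA was addressed in mice 1 to 4, which were in both assays. The log2 ratio of footprint to RNA CPM, all 14 libraries scaled together, was 0.57 and 0.66 for Arc in control mice 1 and 3 and 0.91 and 0.95 in KO mice 2 and 4. For Cyr61 it was 0.15 and 0.70 in the controls and 1.20 and 1.01 in the KO mice, and for Homer1 it was -1.19 and -1.09 against -0.89 and -0.90. In these 3 genes both KO mice lay above both controls. The same order held for Ptgs2 (0.24 and 0.18 against 0.42 and 0.33) and for Inhba (0.53 and 0.32 against 0.93 and 0.68). Nptx2 overlapped (0.38 and 0.15 against 0.27 and 0.22), and so did Bdnf (0.59 and 0.88 against 0.40 and 0.64). Both KO mice were thus above both controls in 5 of the 7 genes, and in 25% of all 12145 genes.

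With all 14 libraries, the log2 difference between genotypes in footprints relative to RNA was 1.02 ± 0.38 for Arc, 0.97 ± 0.37 for Cyr61 and 0.68 ± 0.31 for Ptgs2. It was 0.27 ± 0.08 for Homer1 and 0.21 ± 0.16 for Nptx2. Bdnf stood at 0.07 ± 0.18 and Inhba at -0.14 ± 0.28. None of the 7 genes was called by edgeR (0 of 7, with 4 at an unadjusted p under 0.05, as were 23.1% of all genes), and DESeq2 called 1, Homer1, where it called 11.2% of all genes with an adjusted p, while edgeR called 7.81% of 12145 genes, 3.4% higher and 4.41% lower. These values are again a description, because they are built from the libraries on which the genes were chosen. The mice in both assays pair the libraries, and the fit with the mouse as a replicate block, which rests on mice 1 to 4, called 2 of the 7, Arc at 0.31 ± 0.08 and Homer1 at 0.24 ± 0.08, where 14.9% of all genes were called and 6.55% higher. In that fit Cyr61 stood at 0.65 ± 0.25, Ptgs2 at 0.16 ± 0.25, Inhba at 0.38 ± 0.33, Nptx2 at -0.01 ± 0.13 and Bdnf at -0.21 ± 0.17. Control mouse 8 and KO mouse 5, the RNA libraries nearest to the other genotype in Arc, have no footprint library. Without control mouse 8 the values of the unpaired fit were 0.55 for Arc, 0.35 for Ptgs2, 0.07 for Nptx2, -0.08 for Bdnf and 0.02 for Inhba, and 0.80 for Cyr61 and 0.24 for Homer1. Homer1 was called without KO mouse 5, without control mouse 6 and on plain library sizes, where 10.6%, 6.02% and 8.82% of all genes were called. Cyr61 was called without KO mouse 5, and Arc and Cyr61 with no filter on low counts, where 5.44% of all genes were called.

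How strongly ribosomes occupied these mRNAs in the absence of any knock-out was tested in the control mice alone, a comparison that uses no KO library. Footprints were set against RNA over 3 footprint and 4 RNA libraries. The libraries are scaled to each other, so 0 is the typical gene and not equal occupancy. Homer1 was far below the typical gene, with a log2 difference of -1.13 ± 0.07 (edgeR's quasi-likelihood F test, adjusted p = 1.87e-09). Only 12.3% of genes had a lower value. Inhba was above it, at 0.76 ± 0.21 (adjusted p = 0.00449), and so was Bdnf, at 0.47 ± 0.14 (adjusted p = 0.00905). The other 4 genes were not called: Cyr61 stood at 0.38 ± 0.20 (adjusted p = 0.1004), Arc at 0.14 ± 0.28 (adjusted p = 0.646), Nptx2 at 0.04 ± 0.13 (adjusted p = 0.799) and Ptgs2 at -0.13 ± 0.27 (adjusted p = 0.671). So 3 of 7 were called, 2 above and 1 below, in a comparison in which 74.6% of 11952 genes were called, 36.9% above and 37.7% below.

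Homer1 kept its call in all 11 alternatives tried, including each left-out mouse, though its value was -1.80 with the exon columns in place of the matched ones. Inhba stood at 1.36 with the exon columns. The position of Arc turned on control mouse 8: without that mouse its log2 difference was 0.61 (adjusted p = 1.17e-08), and Cyr61 was then called too, at 0.55 (adjusted p = 0.0107). With the mouse as a replicate block, the contrast rests on control mice 1 and 3 alone, the controls in both assays. Their RNA libraries were close (chi-square per degree of freedom 1.99), so its p-values cover little of the spread between animals. Control mouse 8 has no footprint library and does not bear on this contrast. In it Arc was called at 0.61 (adjusted p = 1.63e-14) and Bdnf stood at 0.74 (adjusted p = 7.53e-08). Nptx2 stood at 0.25 (adjusted p = 0.00813), and the call of Inhba was lost at 0.42 (adjusted p = 0.0614). Bdnf lost its call without control mouse 3 (0.31, adjusted p = 0.120) and on plain library sizes (0.31, adjusted p = 0.0700), and turned to -0.29 (adjusted p = 0.0316) with the exon columns, with which Cyr61 was called at 0.48 (adjusted p = 0.0481). Of all genes, 76.6% were called without control mouse 8, 75.6% with the replicate block, 68.1% without control mouse 3, 74.9% on plain library sizes and 79.2% with the exon columns. A large share of the exon counts of Bdnf and Homer1 is not in the columns treated as matched to the footprints, as given next.

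**Figure D3:**
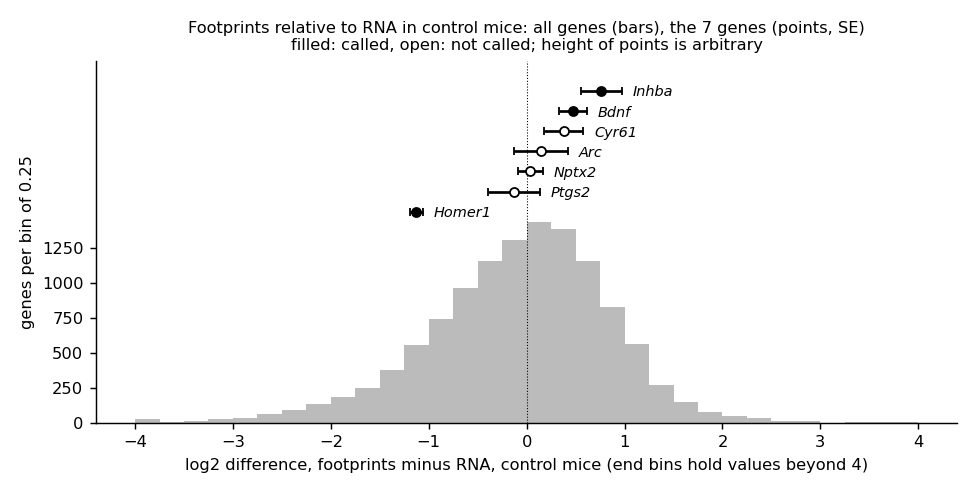
Footprints relative to RNA in control mice, as log2 differences (x axis); grey bars count all genes tested in bins of 0.25, and the points give the 7 genes with standard errors, filled where called. Homer1 at -1.13 sits in the lower tail, and the other 6 genes lie between -0.13 and 0.76.

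Each RNA library has a pair of count columns, one whose header names exons and one without that word. The second holds values for the same genes as the footprint columns and is treated here as matched to the region they cover, although no source used here states the region. The share of exon counts that is not in the second column is called the share outside the matched region. In Arc that share was 52.2%, 52.2% and 52.7% in control mice 1, 3 and 6 and 62.8% in control mouse 8 (95% Wilson interval 61.4% to 64.3%). In KO mice it was 54.1% to 57.7%. Control mouse 8 thus had the highest share of all 8 libraries. Nptx2 and Inhba also had their highest share in control mouse 8, at 49.3% and 23.1%, against 38.2% to 44.0% and 7.25% to 11.7% in the other controls. In Ptgs2 the order was the opposite: 30.0% (interval 24.9% to 35.7%) in control mouse 8 and 47.2% to 56.4% in the other controls, with 49.7% to 54.8% in KO mice. Bdnf (60.6% against 65.1% to 71.6%) and Homer1 (59.4% against 63.4% to 65.6%) were also at their lowest there. Over all genes tested, the median share was 32.7% in control mouse 8 and 35.0% to 36.8% in the other controls. The intervals cover counting error only, since PCR copies are not independent molecules.

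Between genotypes the outside share was 55.0 ± 5.24% (SD, n = 4) in controls and 56.2 ± 1.49% (SD, n = 4) in KO mice for Arc, and 63.4 ± 2.85% and 65.3 ± 1.06% for Homer1. Cyr61 had 37.0 ± 8.64% and 32.6 ± 2.19%, with only 77 to 125 exon counts per control library. Ptgs2 had 46.6 ± 11.7% in controls and 51.9 ± 2.34% in KO mice, and the 3 controls without mouse 8 were at 52.2 ± 4.66% (SD, n = 3). With all 4 controls the Arc shares overlapped, at 52.2% to 62.8% in control and 54.1% to 57.7% in KO libraries. The Arc difference between the genotype means, 1.21 points, lay at percentile 79.9 of all genes. Arc without control mouse 8, left out after seeing the data, was at 52.4 ± 0.306% in controls (SD, n = 3), below all 4 KO libraries. How many of all genes separate in that way was not counted, so nothing is read from it. In the exon columns the levels of Arc spanned 64.7 to 230 CPM in the control group and 161 to 421 CPM in the KO group, an overlap as in the matched columns.

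**Figure D4:**
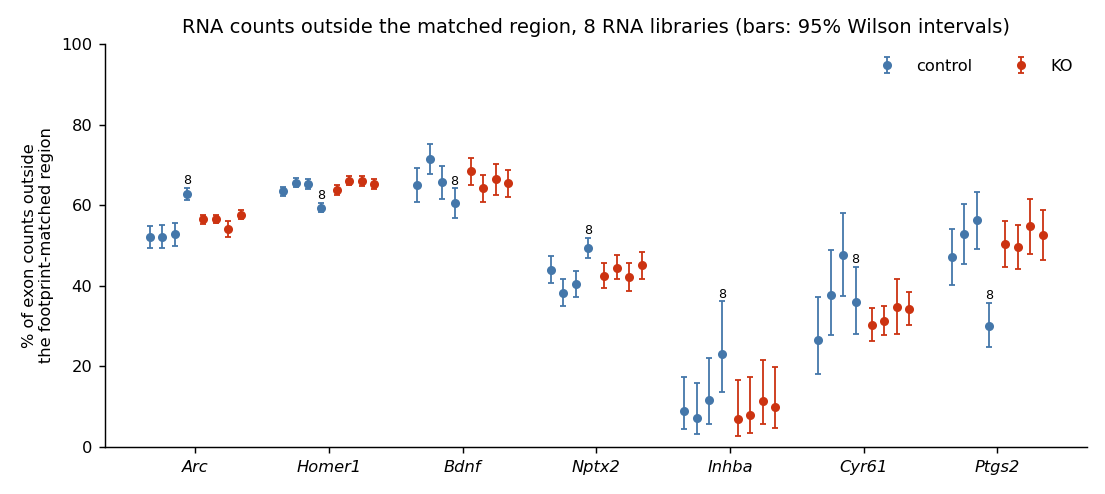
Share of each gene's exon counts that lies outside the footprint-matched region, in percent, for the 8 RNA libraries with 95% Wilson intervals; blue points are control mice 1, 3, 6 and 8 from left to right, red points KO mice 2, 4, 5 and 7. Control mouse 8, marked 8, is highest for Arc at 62.8% and lowest for Ptgs2 at 30.0%.

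To place the 7 genes in their pathways, a list of 28 further activity-regulated genes that encode no transcription factor and 7 short lists of partner genes (56 genes in all) were read from the same fits. These lists were also written with earlier results known. Their counts of calls between genotypes are thus a description, and nothing is read from them beside the shares over all genes. Differences of their genes between KO and control are on the log2 scale throughout. In RNA, 6 of the 27 activity-regulated genes tested were called higher and 2 lower, with a median log2 difference of 0.12, where 3.53% of all genes were called higher and 3.88% lower. Trib1, a pseudokinase that targets proteins for degradation, averaged 7.13 ± 2.83 CPM in control and 17.1 ± 4.49 CPM in KO libraries (SD, n = 4 each), a log2 difference of 1.26 (edgeR, adjusted p = 0.00608). Sik1, a salt-inducible kinase, rose by 1.09 (edgeR, adjusted p = 0.0116) and Arl4d, a small GTPase, by 0.80 (edgeR, adjusted p = 0.00895). Plat, tissue plasminogen activator, fell by 0.38 (edgeR, adjusted p = 0.00424), and Scg2, a granin of dense-core vesicles, fell by 0.24 (edgeR, adjusted p = 0.0212). These 5 calls were lost when the RNA libraries of KO mice 2, 4 and 7 were summed into 1 (edgeR, adjusted p = 0.0977 to 0.241), and within mice 5 to 8 alone (edgeR, adjusted p = 0.113 to 0.323), where Trib1 stood at 0.70, Sik1 at 0.60 and Arl4d at 0.47. The differences of Plat (-0.39) and Scg2 (-0.26) in mice 5 to 8 were as large as in all mice, and with the 3 libraries summed they were -0.39 and -0.22. With the 3 libraries summed, Trib1 stood at 1.13, Sik1 at 0.90 and Arl4d at 0.67, somewhat below their values in all mice. Scg2 lost its call also without KO mouse 2, 4 or 7.

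In footprints, 14 of the 27 activity-regulated genes were called higher and 2 lower, with a median log2 difference of 0.15, where 11.9% of all genes were called higher and 13.6% lower. Trib1 averaged 9.29 ± 1.08 CPM in control and 39.0 ± 4.14 CPM in KO libraries (SD, n = 3 each), a log2 difference of 2.07 (edgeR, adjusted p = 6.48e-25). The difference was 1.45 for Gem, a Ras-like GTPase (edgeR, adjusted p = 0.000417), and 1.41 for Arl4d (edgeR, adjusted p = 6.81e-19). The 2 lower genes encode granins of dense-core vesicles, Vgf and Scg2, which fell by 0.16 each (edgeR, adjusted p = 1.32e-06 and 9.00e-07). Relative to RNA, 3 of 27 were called higher and 0 lower, where 3.4% of all genes were called higher and 4.41% lower. The largest was Rgs2, a regulator of G-protein signalling, at 0.70 (edgeR, adjusted p = 0.000105), followed by Fbxo33, at 0.47 (edgeR, adjusted p = 0.0104), whose call was lost without KO mouse 2 (edgeR, adjusted p = 0.0815). The third was Plk2, a kinase that phosphorylates synaptic scaffolds, at 0.29 (edgeR, adjusted p = 0.00994), whose call was also lost without KO mouse 2 (edgeR, adjusted p = 0.0536).

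In footprints, 3 of 49 partner genes were called higher and 14 lower, with a median log2 difference of -0.008, where 11.9% of all genes were called higher and 13.6% lower. Over both lists 17 of 33 footprint calls were higher, and on plain library sizes 23 of 34. Of the Homer1 family and its ligands, 6 of 8 were called lower in footprints, which makes 6 of the 14: Homer2, Grm5, Shank1, Shank2, Shank3 and Itpr1. The call of Homer2 was lost with DESeq2, on plain library sizes and without mouse 2, 3, 9 or 10 (adjusted p = 0.0776 to 0.203), and that of Grm5 on plain library sizes (edgeR, adjusted p = 0.0618). Shank2, a postsynaptic scaffold, averaged 109 ± 1.79 CPM in control and 71.3 ± 1.87 CPM in KO libraries (SD, n = 3 each), a log2 difference of -0.61 (edgeR, adjusted p = 6.07e-14), and Shank1 stood at -0.40 (edgeR, adjusted p = 6.88e-08). Homer1 itself, whose long forms bind these proteins, was in the other direction at 0.20. Relative to RNA, where 4.41% of all genes were called lower, 4 of these 8 genes were: Shank1 (-0.76, edgeR, adjusted p = 1.96e-05), Shank2 (-0.67, edgeR, adjusted p = 0.000140), Shank3 (-0.54, edgeR, adjusted p = 0.00332) and the IP3 receptor Itpr1 (-0.38, edgeR, adjusted p = 0.00105). In control mice, footprints relative to RNA were called below the typical gene for 6 of the same 8 genes and above it for 0. Their median was -0.64, where 74.6% of all genes were called and 37.7% below.

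Among the other partners, TrkB (Ntrk2), the receptor of BDNF, was higher in footprints by 0.13 (edgeR, adjusted p = 0.000136). Its RNA difference was as large, at 0.13, but not called (edgeR, adjusted p = 0.240), and footprints relative to RNA stood at -0.01 (edgeR, adjusted p = 0.947). Nptxr, the membrane-bound pentraxin that assembles with Nptx2, was lower in footprints by a log2 difference of -0.29 (edgeR, adjusted p = 3.27e-07). Of the activin pathway, the receptor Acvr1b was higher in footprints by 0.16 (edgeR, adjusted p = 0.0128), a call lost without KO mouse 2 or control mouse 3 (edgeR, adjusted p = 0.107 and 0.157) and with DESeq2 (adjusted p = 0.0986), and Acvr2a and Smad3 were called lower. Acvr2a lost its call with DESeq2, on plain library sizes and without KO mouse 2 (adjusted p = 0.0530 to 0.0878). Smad3 lost it with DESeq2, on plain library sizes, with no filter on low counts and without mouse 2, 3, 4, 9 or 10 (adjusted p = 0.0566 to 0.198). In the family of Cyr61, Ctgf was higher in RNA by 0.37 (edgeR, adjusted p = 0.0106) and in footprints by 0.26 (edgeR, adjusted p = 0.00138). Its RNA call was lost with KO mice 2, 4 and 7 summed (0.40, edgeR, adjusted p = 0.105) and with control mice 1 and 3 summed as well (0.39, edgeR, adjusted p = 0.203). It was also lost within mice 5 to 8 alone (0.37, edgeR, adjusted p = 0.220), so the difference stayed as large. Nov was lower in RNA and footprints, at -0.35 (edgeR, adjusted p = 0.0179) and -0.39 (edgeR, adjusted p = 1.32e-19). Ptgds, the prostaglandin D synthase abundant in meninges and choroid plexus, was lower in RNA at -0.39 (edgeR, adjusted p = 0.00108) and in footprints at -0.44 (edgeR, adjusted p = 3.43e-30), beside the lower meningeal fibroblast markers given above. The part of those cells in the Ptgds values was not tested.

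In RNA, 4 of 52 partner genes were called higher and 3 lower, where 3.53% of all genes were called higher and 3.88% lower. Furin, a protease that cleaves proBDNF, was higher by 0.48 (edgeR, adjusted p = 0.0443) and Cacng2, the AMPA receptor auxiliary protein stargazin, by 0.41 (edgeR, adjusted p = 0.0404). Shank1 was the other higher gene beside Ctgf, at 0.36 (edgeR, adjusted p = 0.00376). Its call was lost with KO mice 2, 4 and 7 summed (0.39, edgeR, adjusted p = 0.0619) and with control mice 1 and 3 summed as well (0.40, edgeR, adjusted p = 0.124). It was also lost within mice 5 to 8 alone (0.42, edgeR, adjusted p = 0.0609), so the difference stayed as large. Both Furin and Cacng2 lost their call when any of mice 1, 2, 3, 4, 6 and 7 was left out (edgeR, adjusted p = 0.0846 to 0.127). Without 1 of these mice Furin stood at 0.38 to 0.51 and Cacng2 at 0.32 to 0.41. Furin also lost its call with the exon columns (edgeR, adjusted p = 0.0862) and on plain library sizes (edgeR, adjusted p = 0.0502). Within mice 5 to 8 alone Furin stood at 0.18 and Cacng2 at 0.16, neither called (edgeR, adjusted p = 0.650 and 0.685). Ntf3, the neurotrophin NT-3, was lower by a log2 difference of -1.16 (edgeR, adjusted p = 0.0182) at averages of only 2.13 ± 0.461 CPM in control and 0.937 ± 0.179 CPM in KO libraries (SD, n = 4 each), and its call was lost without mouse 2, 6 or 7 (edgeR, adjusted p = 0.0609 to 0.0680). Nov lost its RNA call without mouse 2, 4, 6 or 7 (edgeR, adjusted p = 0.0601 to 0.0731) and with the exon columns (edgeR, adjusted p = 0.0981). When KO mice 2, 4 and 7 were summed, 1 of the 79 activity-regulated and partner genes was still called in RNA, Ptgds.

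**Figure D5:**
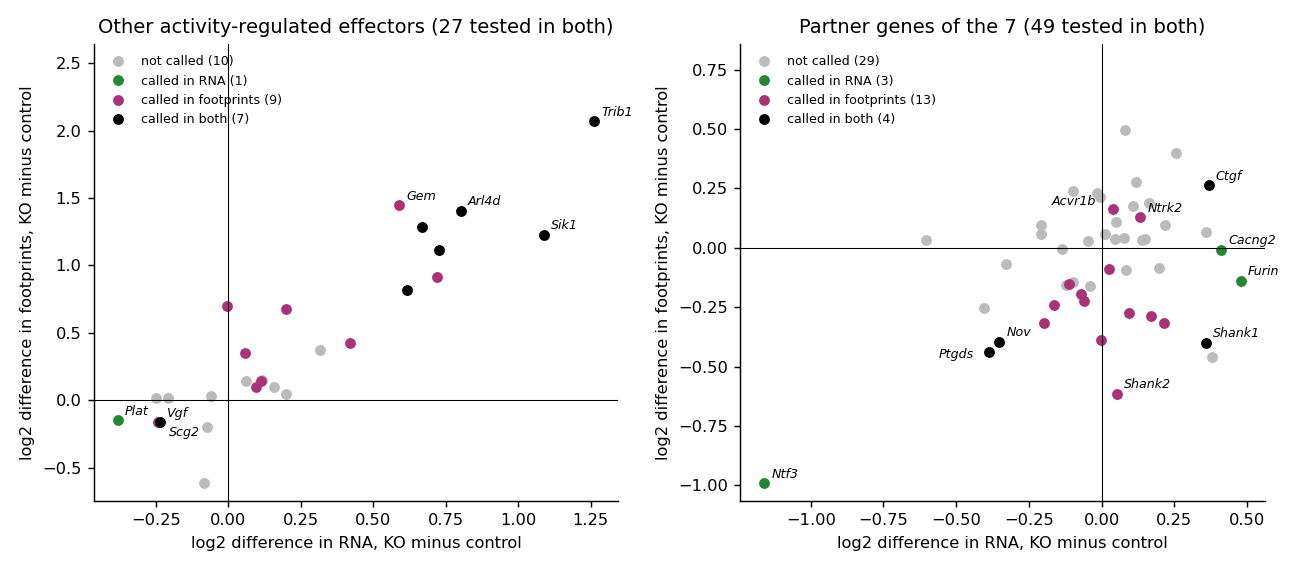
log2 difference between KO and control in RNA (x axis) and footprints (y axis) for the activity-regulated genes (left, 27 tested in both) and the partner genes (right, 49 tested in both); colours give where a gene was called. Trib1 at 1.26 and 2.07 is the farthest point of the left panel, and Shank1 and Shank2 lie below 0 on the footprint axis of the right panel.

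The genes whose levels ran most like each member were ranked by Pearson r of log2 CPM over the 14 libraries, centred within each assay, among 12119 genes. For Arc they were Nr4a1 (0.999), Fos (0.996) and Junb (0.995), and for Cyr61 they were Fosb (0.991), Fos (0.988) and Npas4 (0.988). These values include the difference between genotypes and are given as a description. The best match of Bdnf was Acd (0.934), that of Homer1 Prpf18 (0.928) and that of Nptx2 Uqcr11 (0.905). For Ptgs2 it was Frzb (0.941) and for Inhba Osgep (0.922). Each best match is the largest of 12119 values over 14 libraries, and what unrelated genes would reach was not computed. Nothing on shared regulation is read from these matches. Within the set, Arc and Cyr61 had the highest correlation (0.98). Arc reached 0.83 with Bdnf and 0.81 with Ptgs2, while Arc and Nptx2 stood at 0.07 and Bdnf and Inhba at -0.82.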

How the data were processed

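RNA-seq (8 libraries) and ribosome profiling (6 libraries) of mouse cortex were analysed from a table of whole-number counts per gene that the authors deposited without normalization. Per the submitters' processing notes, Bowtie2, STAR 2.5 and featureCounts of Subread 1.4.6 were used with builds mm9 and mm10. Which tool or build gave this table, the annotation and the region of each column are not given in the sources used here. RNA libraries were strand-specific per the labels' protocols. The RNA columns treated as matched to the footprints (20563 genes) were the main ones, and the exon columns an alternative. Genotype and mouse number came from the labels. Mice 1 to 4 are in both assays and pair them as the same animals, although deviations of the same mouse in both assays correlated at only -0.0123 to 0.0353.

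Counts were tested with edgeR 4.0.16 (R 4.3.3; quasi-likelihood F test, TMM, filterByExpr at a minimum count of 10). Footprints relative to RNA were the genotype by assay interaction over all 14 libraries. P-values are two-sided, Benjamini-Hochberg adjusted over all genes tested, and called under 0.05. Standard errors come from the F statistic, and CPM values use TMM sizes. Levels are not compared between genes, since coding lengths were not used here. DESeq2 1.42.0, plain library sizes, the replicate block, left-out mice, mice 1 to 4 or 5 to 8 alone and summed libraries were tried as alternatives. Summing KO mice 2, 4 and 7 with the controls kept apart, shares without control mouse 8 and marker sums without their most abundant gene were chosen after seeing the data. The script was tested on simulated data. The 7 genes and all lists were chosen with earlier results of these data known. Besides the 7, named genes were the 3 largest rises and falls of the activity-regulated and of the partner lists (2 for footprints relative to RNA) among called genes at 1 CPM or more, and the best-correlated genes. Homer2, Grm5, Shank3, Itpr1, Plk2, Nptxr, Acvr2a and Smad3, and Shank1 in RNA, were named after their values were seen. Marker lists of inhibitory neurons, astrocytes, oligodendrocytes, microglia, mural cells and striatum were also summed. In RNA, 1 of 6 inhibitory neuron markers was called higher and 1 lower, 2 of 5 astrocyte markers and 1 of 5 oligodendrocyte markers were called lower (the oligodendrocyte sum was 3829 to 4189 CPM in KO and 4471 to 4820 CPM in control libraries, and the other sums overlapped, though that of astrocytes without Slc1a3 was lower in every KO library, at 399.9 to 439.8 CPM against 489.6 to 517.5 CPM), and no other marker of these lists was called. In footprints, inhibitory neurons had 3 of 6 called higher and 1 lower (sums 1694 to 1721 CPM in KO, 1621 to 1667 CPM in control libraries), astrocytes 2 of 5 lower (1516 to 1535 against 1631 to 1674 CPM), oligodendrocytes 1 of 5 higher and 2 lower (7391 to 7412 against 7492 to 7637 CPM), mural cells 1 of 6 higher and 1 lower, striatum 2 of 5 higher and 1 lower (overlapping, but higher in every KO library without Ppp1r1b, at 244 to 280 CPM against 215 to 235 CPM), and microglia 0 of 5. Their part in the values of the 7 genes was not tested.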

Additional observations from a re-analysis of the deposited data

Results flagged for a closer look

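In 3 of 28 groups of 4 RNA libraries checked, 1 library stood apart from the other 3 by more than the 95% critical value of Dixon's test, where chance flags about 1 in 20 groups. All 3 concern Arc. Control mouse 8 was the highest control library in Arc RNA, at 151 CPM against 58.8 to 61.6 CPM, with a gap of 0.969 of the group's range. KO mouse 5 was the lowest KO library in Arc RNA, at 136 CPM against 309 to 330 CPM, with a gap of 0.891 of the range. The share of Arc exon counts outside the matched region was highest in control mouse 8, at 62.8% against 52.2% to 52.7%, with a gap of 0.950 of the range. The choroid plexus marker sums of these mice are given with the library comparison above, and the reason for their position was not tested.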

How the results depend on the processing

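The RNA fit called 1001 genes. Fits with other libraries called 79 when KO mice 2, 4 and 7 were summed and 36 when control mice 1 and 3 were summed as well, against 3273 within mice 1 to 4 alone, 88 within mice 5 to 8 alone and 356 to 1763 with 1 mouse left out, the highest without control mouse 8. For the activity-regulated and partner genes in RNA, the count of 15 became 1, 0, 32 and 1 under the same 4 settings, and 7 to 22 with 1 mouse left out. In footprints DESeq2 called 1723 genes and edgeR 3102 (2558 to 2855 with 1 mouse left out), and the activity-regulated and partner genes gave 25 to 34 calls around the 33. In footprints relative to RNA, 949 genes were called, 579 with both sums, 1812 with the replicate block and 419 to 1289 with 1 mouse left out, the lowest without KO mouse 2; the activity-regulated and partner genes gave 7, 12 with the replicate block and 5 to 10 with 1 mouse left out. On plain library sizes 66.3% of footprint calls were higher in KO mice and not 46.7%, 67.6% of calls relative to RNA and not 43.5%, and 39.8% of the calls in control mice were above and not 49.5%. In control mice the count of 3 of the 7 genes became 2 without control mouse 3 and on plain sizes, 4 with exon columns and with the replicate block, and 5 without control mouse 8. Values that turned there were Arc with exon columns (-0.34) and plain sizes (-0.020), Bdnf with exon columns (-0.29), Nptx2 with exon columns (-0.025), plain sizes (-0.13) and without control mouse 1 (-0.067; left-out mice gave up to 0.18), and Ptgs2 with the replicate block (0.21) and without control mouse 8 (0.20; left-out mice gave down to -0.27). Of the turned values only that of Bdnf was called (edgeR, adjusted p = 0.0316). Those of Arc, Nptx2 and Ptgs2 were not (edgeR, adjusted p = 0.259 to 0.952), and neither were their main values, so these are changes of sign around 0. The cause was not tested for any of these changes. Beyond the calls given in the report (Arc, Homer1, Nptx2 and Inhba), the replicate block changed no call among the genes named by rule. Low counts limit Cyr61 in control footprints (25 to 43) and Inhba (33 to 59).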
